A study of Mus musculus with 10 samples.

Results

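The 10 genes described here mark the primitive streak, the anterior mesendoderm and the definitive endoderm of the gastrulating mouse embryo: Eomes, Mixl1, Gsc, Lhx1, Foxa1, Foxa2, Hhex, Cxcr4, Mesp1 and Kdr. They were taken by symbol, and all 10 were found among 52636 gene identifiers in the count tables. RNA was sequenced from cells labelled E14, a mouse embryonic stem cell line derived from a male blastocyst, after 24 h of retinoic acid at a labelled dose of 2 µM in medium without LIF and the 2 kinase inhibitors that hold these cells in self-renewal. Unedited cells (WT, 2 libraries) were compared with cells of genotype CBE-KO (2 libraries), in which a site bound by the chromatin protein CTCF was removed. The study asked how that site shapes contacts between nearby enhancers and the HoxA cluster. The site is not a gene, so the counts hold no check of its removal. Both groups received retinoic acid, so no untreated level was measured. The labels do not say how many clones the CBE-KO libraries represent.

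During gastrulation, Nodal and Wnt signals induce the primitive streak, where epiblast cells become mesoderm or definitive endoderm. Eomes acts early in this step and is followed by the homeobox genes Mixl1, Gsc and Lhx1 in the anterior streak, by Mesp1 and Kdr in nascent mesoderm, and by Foxa1, Foxa2, Hhex and Cxcr4 as endoderm forms. In embryonic stem cells, retinoic acid favours neural and extraembryonic endoderm-like fates over the streak, and Foxa1 is a known retinoic acid target.

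Foxa1 and Cxcr4 rose in CBE-KO, by 3.34-fold (95% interval 2.51 to 4.43) and 5.62-fold (3.58 to 8.84), with 2 libraries in each group. Kdr rose by 2.82-fold (1.34 to 5.91) from a few counts, a call that 4 of 10 alternative fits did not make. The early streak gene Eomes and the endoderm regulator Foxa2 had log2 fold changes of 0.09 and -0.08, which did not pass the test. Mixl1 was higher in both CBE-KO libraries and Hhex in 1 of them, and neither passed. Gsc, Lhx1 and Mesp1 were too low to be tested, and Lhx1 and Mesp1 lay at or near the limit of detection in all 4 libraries. None of the 7 tested genes was called lower, beside 21.5% called lower among all tested genes. In bulk RNA a difference in the number of cells of a type and a difference in RNA per cell cannot be told apart.

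The sequences upstream of the starts of the 3 genes that rose are shown because these genes were called; counts per gene do not tell which annotated start was used. Windows from 250 bases before to 50 bases after an annotated start were found for 9 of the 10 genes, 11 windows in all, in RefSeq's annotation of GRCm38 (the mm10 build). Gene positions given below are from the same RefSeq annotation. The 250 upstream bases are printed in gene orientation, and capitals mark a motif match. The Foxa1 and Kdr windows lie inside the outer bounds of their genes, since another start is annotated farther upstream, and whether they overlap an exon of that longer transcript was not determined.
Foxa1, chr12:57546112-57546361, minus strand: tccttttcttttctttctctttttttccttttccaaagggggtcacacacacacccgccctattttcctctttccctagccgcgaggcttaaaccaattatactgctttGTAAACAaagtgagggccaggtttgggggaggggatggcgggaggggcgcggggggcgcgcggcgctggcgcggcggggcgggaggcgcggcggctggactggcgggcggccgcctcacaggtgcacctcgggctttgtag
Cxcr4, chr1:128592300-128592549, minus strand: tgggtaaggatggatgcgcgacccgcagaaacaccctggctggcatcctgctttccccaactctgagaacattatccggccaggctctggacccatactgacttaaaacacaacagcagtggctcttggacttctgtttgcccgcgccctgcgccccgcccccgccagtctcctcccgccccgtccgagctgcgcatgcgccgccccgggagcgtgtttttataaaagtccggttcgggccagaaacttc
Kdr, chr5:75978456-75978705, minus strand: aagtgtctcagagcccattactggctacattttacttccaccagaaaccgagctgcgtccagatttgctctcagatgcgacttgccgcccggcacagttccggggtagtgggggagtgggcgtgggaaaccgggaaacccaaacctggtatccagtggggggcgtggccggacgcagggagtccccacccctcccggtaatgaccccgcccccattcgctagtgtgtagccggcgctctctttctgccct

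Both strands of the 300-base windows were searched for 6 motifs: the T-box site TCACACC, the TCF/LEF sites CTTTGAA and CTTTGAT, the Foxh1 site AATCCACA, the forkhead site TGTTTAC and the nuclear receptor site AGGTCA. The Foxa1 window held 1 match, a forkhead site on the opposite strand at position -141 from the start (capitals above). Among all 32851 windows of this length, 3.65% held that site. No match to the 6 motifs was found in the Cxcr4 and Kdr windows. Mesp1 had 3 matches, a T-box site and both forms of the TCF/LEF site, and a Foxa2 window had 1, a TCF/LEF site. The share of all windows with a match was 3.98% for the T-box site, 5.14% and 3.73% for the TCF/LEF sites, 0.855% for the Foxh1 site and 16.3% for the nuclear receptor site. These matches describe letters and were not tested for binding.

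The 4 libraries held 14108038 to 15632960 counts. At that depth 3 counts, taken as the floor of detection, corresponded to 0.185 to 0.218 CPM (counts scaled to library size, here with edgeR's TMM factors). Of 16005 genes that passed the filter on low counts, 43.1% differed between CBE-KO and WT in edgeR's quasi-likelihood test at an adjusted p under 0.05. The share called higher in CBE-KO was 21.6% and the share called lower 21.5%. With library totals in place of TMM, 67.0% of calls were higher instead of 50.2%, and the median change over all genes moved from 0.01 to 0.11 on the log2 scale. The Y-linked genes Ddx3y, Eif2s3y and Uty had 6, 3 and 2 counts in WT replicate 1 and 5, 5 and 0 in WT replicate 2, against 920, 888 and 293 in CBE-KO replicate 1 and 822, 779 and 267 in CBE-KO replicate 2. Y-linked counts were thus low in the libraries labelled WT, although the line is of male origin. Whether the WT cells lost the Y chromosome or come from another line was not tested. The labels give both groups as E14, and a difference in the source or Y-linked content of the cells cannot be told apart from the removal of the CTCF site in any comparison below.

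Of the 10 genes, 7 passed the filter on low counts, and 3 of these 7 were called, all 3 higher. The calls must be read beside the 43.1% called among all tested genes and the 21.6% called higher. The filter asks for a level of 0.679 CPM in 2 libraries. Mixl1 and Kdr reached it in the CBE-KO libraries alone, so these genes entered the test through the group in which they were higher. Cxcr4 reached it in both CBE-KO libraries but in only 1 WT library, so its entry also rested on the group in which it was higher.

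**Figure D1:**
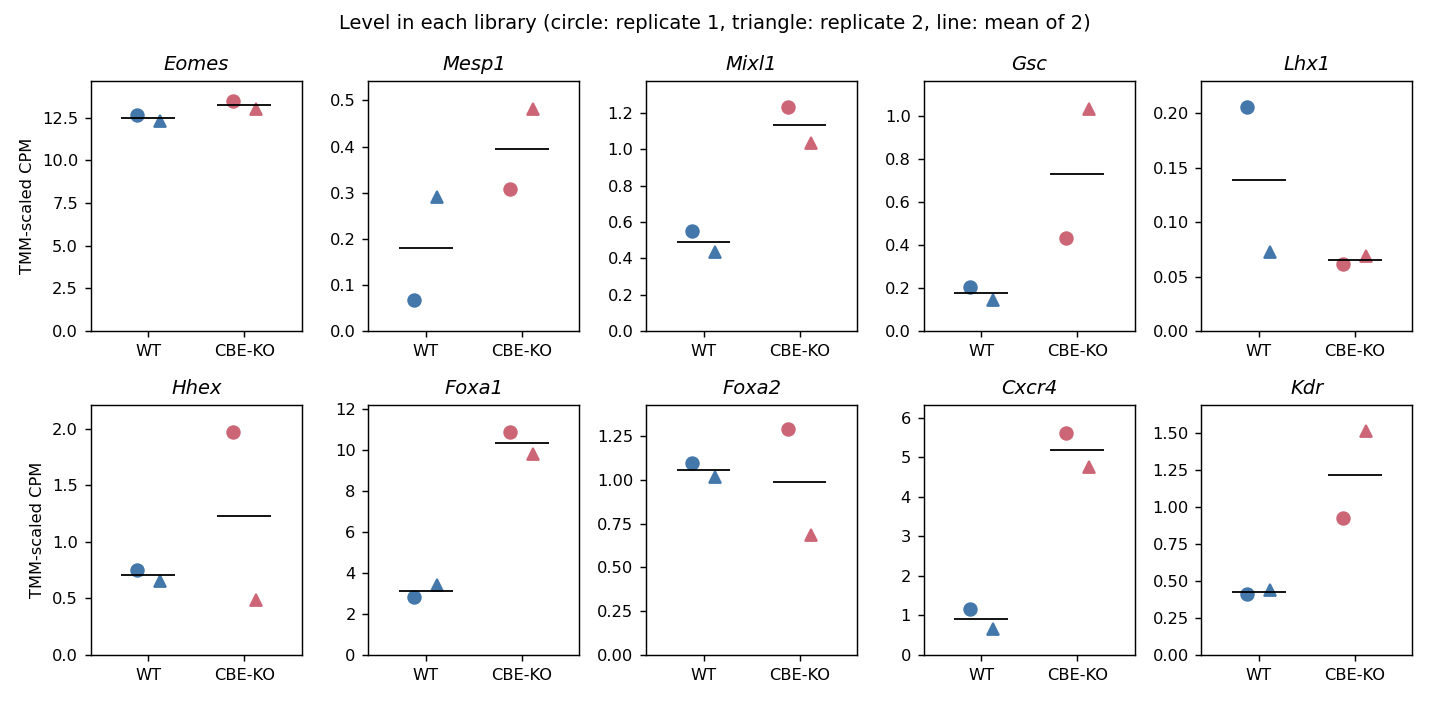
Each panel plots 1 gene: the vertical axis is TMM-scaled CPM from 0, blue symbols are WT and red symbols CBE-KO libraries, and lines are means of 2 libraries. Foxa1 and Cxcr4 separate widely, Eomes lies near 12 to 13.5 CPM in all 4 libraries, and the CBE-KO libraries lie far apart for Hhex.

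Eomes (ENSMUSG00000032446, chr9:118478186-118486132) encodes a T-box transcription factor required for streak cells to leave the epiblast and form definitive endoderm. WT counts of Eomes were 185 and 169 and CBE-KO counts 219 and 189, or 12.7 and 12.3 CPM against 13.5 and 13.0 CPM. Levels in the CBE-KO libraries were both slightly above those in WT. The log2 fold change was 0.09 ± 0.13 (SE; adjusted p = 0.633, edgeR), with a 95% interval from -0.189 to 0.362. A change larger than 1.28-fold upward, or below 0.877 of the WT level, lies outside this interval.

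Mesp1 (ENSMUSG00000030544, chr7:79792241-79793590), a basic helix-loop-helix factor that marks the earliest cardiac mesoderm, is a known target of Eomes. WT counts were 1 and 4 and CBE-KO counts 5 and 7, too low to test, and the groups were separated by 1 count. The CBE-KO to WT ratio of summed counts was 2.21, with an exact 95% interval (Clopper-Pearson) from 0.725 to 8.01 that covers counting error only. No difference in Mesp1 was detectable at this depth.

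Mixl1 (ENSMUSG00000026497, chr1:180693043-180697034) encodes a paired-type homeodomain protein of the streak that responds to Nodal. Its counts were 8 and 6 in WT and 20 and 15 in CBE-KO. Both CBE-KO libraries were above both WT libraries. The means were 0.492 ± 0.0787 and 1.13 ± 0.142 CPM (SD, n = 2 each), and the log2 fold change of 1.19 ± 0.48 (SE) did not pass (edgeR adjusted p = 0.0545). It passed with upper-quartile scaling (adjusted p = 0.0481) and with library totals (adjusted p = 0.0355), and DESeq2 gave an adjusted p of 0.284.

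Gsc (ENSMUSG00000021095, chr12:104471209-104473236) encodes the homeodomain repressor of the gastrula organizer. Counts were 3 and 2 in WT, at or under the floor, and 7 and 15 in CBE-KO, and the gene did not pass the filter. The ratio of summed counts was 4.05 (exact 95% interval 1.5 to 13.7, counting error only). Without the filter Gsc was called higher (edgeR adjusted p = 0.0444). Both CBE-KO libraries were above both WT libraries, and CBE-KO replicate 2 was the highest.

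Lhx1 (ENSMUSG00000018698, chr11:84517975-84525534) is a LIM-homeodomain factor of anterior mesendoderm, with counts of 3 and 1 in WT and 1 and 1 in CBE-KO. All 4 libraries were at or under the floor of 3 counts, and no fold change is given. The cofactors that LIM-homeodomain proteins bind were well measured: Ldb1 had 3607, 3299, 3120 and 2883 counts, and Ssbp3 2232, 2038, 2919 and 2679, in WT replicates 1 and 2 and CBE-KO replicates 1 and 2. Ldb1 fell by 0.32 on the log2 scale and Ssbp3 rose by 0.27. Both cofactors were named because they act with Lhx1, after their values were seen.

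Hhex (ENSMUSG00000024986, chr19:37434841-37440731) encodes a homeodomain repressor of anterior endoderm, also expressed in visceral endoderm and blood precursors. Counts were 11 and 9 in WT and 32 and 7 in CBE-KO. CBE-KO replicate 1 was above both WT libraries and CBE-KO replicate 2 below both, so the groups overlapped. The ratio between the 2 CBE-KO libraries was 4.10 (exact 95% interval 1.78 to 11, counting error only). The log2 fold change of 0.82 ± 0.55 (SE) did not pass (edgeR adjusted p = 0.248). It became -0.54 without CBE-KO replicate 1 and 1.47 (adjusted p = 0.0300) without CBE-KO replicate 2, so its direction was decided by 1 library.

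Foxa1 (ENSMUSG00000035451, chr12:57540628-57548029) and Foxa2 (ENSMUSG00000037025, chr2:148042877-148046969) encode closely related forkhead proteins that open chromatin at endoderm enhancers. WT counts of Foxa1 were 41 and 47 and CBE-KO counts 177 and 143, or 2.81 and 3.42 CPM against 10.9 and 9.83 CPM. The groups did not overlap. Mean levels were 3.11 ± 0.432 CPM for WT and 10.4 ± 0.762 CPM for CBE-KO (SD over 2 libraries), and the log2 fold change was 1.74 ± 0.19 (SE; adjusted p = 1.50e-06, edgeR) with a 95% interval from 1.33 to 2.15. Foxa1 was called in all 11 alternative fits, with log2 fold changes from 1.6 to 1.88.

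WT counts of Foxa2 were 16 and 14 and CBE-KO counts 21 and 10. The CBE-KO libraries lay on either side of the WT libraries. The log2 fold change was -0.08 ± 0.44 (SE; adjusted p = 0.908, edgeR), turned to 0.03 with library totals and to 0.29 without CBE-KO replicate 2, and had a 95% interval from -0.999 to 0.847. A fall to 0.500 or a rise to 1.80 of the WT level was therefore within the precision for Foxa2.

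Within a library, Foxa1 counts were 2.56 and 3.36 times those of Foxa2 in WT and 8.43 and 14.3 times in CBE-KO. The balance between the paralogues was higher in both CBE-KO libraries than in either WT library, by 1.90 on the log2 scale. An exact two-sided permutation test of this ratio gave p = 0.333. That is the smallest value that 2 libraries against 2 can give, so the test cannot decide whether the balance differs. The ratio of 14.3 in CBE-KO replicate 2 rests on 10 counts of Foxa2. The related Foxa3 had 13, 11, 29 and 20 counts and did not pass (log2 fold change 0.90, edgeR adjusted p = 0.0778). Foxa3 was named for its family, after its values were seen.

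Cxcr4 (ENSMUSG00000045382, chr1:128588199-128592299) encodes the receptor for the chemokine Cxcl12 and is a surface marker of definitive endoderm, also expressed on neural progenitors, endothelium and blood cells. Counts of Cxcr4 were 17 and 9 in the WT libraries against 91 and 69 in CBE-KO, or 1.16 and 0.654 CPM against 5.61 and 4.74 CPM. The lower CBE-KO library was well above the higher WT library. The log2 fold change of 2.49 ± 0.31 (SE; adjusted p = 5.03e-06, edgeR), with a 95% interval from 1.84 to 3.14, was larger than those of 99.3% of tested genes. Across 11 alternative fits Cxcr4 was called each time, and its log2 fold change lay between 2.14 and 2.97.

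The ligand Cxcl12 rose with its receptor, by 0.84 ± 0.31 on the log2 scale (SE; adjusted p = 0.0360, edgeR), from 28 and 19 counts to 56 and 36. This call was lost in DESeq2 (adjusted p = 0.197), without WT replicate 2 (adjusted p = 0.168) and without CBE-KO replicate 1 (adjusted p = 0.335). Ackr3, another receptor that takes up Cxcl12, was counted 159 and 134 times in WT and 176 and 186 times in CBE-KO and did not pass (0.19 ± 0.15, SE; edgeR adjusted p = 0.322).

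Kdr (ENSMUSG00000062960, chr5:75932827-75979072) encodes the main receptor for vascular endothelial growth factor A and appears in lateral mesoderm before blood and vessels form. Counts were 6 and 6 in WT and 15 and 22 in CBE-KO, or 0.411 and 0.436 CPM against 0.924 and 1.51 CPM. The groups did not overlap, at levels only a few times the floor. The log2 fold change was 1.49 ± 0.51 (SE; adjusted p = 0.0243, edgeR), with a 95% interval from 0.425 to 2.56. Kdr did not pass in DESeq2 (adjusted p = 0.163), nor without WT replicate 1 (0.115), WT replicate 2 (0.0908) or CBE-KO replicate 2 (0.287).

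**Figure D2:**
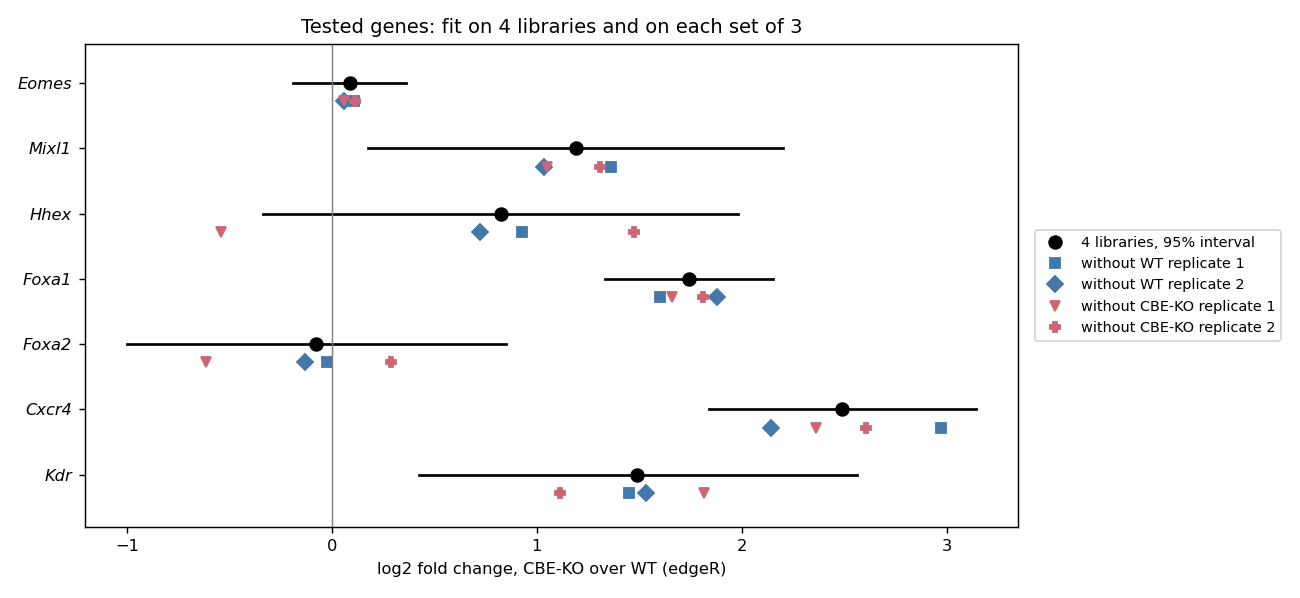
The horizontal axis is the log2 fold change of CBE-KO over WT for the 7 tested genes. Black points and lines are the edgeR estimate from 4 libraries and its 95% interval, and coloured symbols are fits that leave out 1 library. Foxa1 and Cxcr4 stay above 1 in every fit shown, whereas Hhex moves from -0.54 to 1.47.

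Among the Kdr pathway genes, the co-receptor Nrp1 rose from 4 and 4 counts to 25 and 14 (log2 fold change 2.13 ± 0.55, SE; edgeR adjusted p = 0.00435), though not in DESeq2 (adjusted p = 0.0528) or without CBE-KO replicate 1 (adjusted p = 0.110). Nrp1 and Flt1 reached the filter's level in the CBE-KO libraries alone. Nrp2, the co-receptor that pairs with Vegfc signalling, fell by 0.95 on the log2 scale, and Vegfc itself fell by 0.73. Flt1, the decoy receptor for the same ligand as Kdr, had 7, 7, 14 and 15 counts and did not pass (0.92 ± 0.50, SE; edgeR adjusted p = 0.149). Vegfa fell by 0.13 on the log2 scale (edgeR adjusted p = 0.0465), a call that 9 of 11 alternative fits did not make. In the list of ligands, co-receptors and cofactors as a whole, 9 of 12 genes were called, 3 higher and 6 lower, against 43.1% of all tested genes, with a median log2 fold change of 0.03.

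The signals that induce these genes were followed in a list of 18 Nodal and Wnt pathway genes. Of 17 tested, 9 were called, 5 higher and 4 lower, beside 43.1% of all tested genes, and the median log2 fold change was 0.01. Nodal, the ligand of streak induction, was abundant, with 2011, 1771, 2059 and 1790 counts. Its log2 fold change of -0.09 ± 0.05 (SE; adjusted p = 0.168, edgeR) did not pass, turned to 0.01 with library totals and passed without WT replicate 2 (-0.14, edgeR adjusted p = 0.0454). The Nodal co-receptor Tdgf1 fell from 435 ± 13.6 to 189 ± 0.0683 CPM (SD, n = 2 each), by 1.20 on the log2 scale. Pcsk6, a protease that activates Nodal, fell by 0.46, whereas the protease Furin of the same list rose by 0.38 (edgeR adjusted p = 0.00107). Smad3, a transducer of Nodal signals, rose by 1.22 from 6.33 ± 1.02 to 14.7 ± 0.333 CPM. Smad2, in the same list and at a higher level, fell by 0.28 from 63.2 ± 4.03 to 51.9 ± 0.607 CPM. The remaining called genes of the list, Lefty1, Acvr1b and Smad4, rose by 0.31, 0.20 and 0.18 on the log2 scale. Furin, Smad2, Lefty1, Acvr1b and Smad4 were named after their values were seen. Tcf7l1, a repressor at Wnt target genes, fell by 0.62 on the log2 scale, and Wnt3, the Wnt ligand that starts the streak in the embryo, had 5, 3, 3 and 0 counts.

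Of 14 other streak and mesoderm genes, 9 were tested and 3 called, 1 higher and 2 lower (43.1% of all tested genes were called), with a median log2 fold change of -0.18. T (brachyury), the defining gene of the streak, was counted 22 and 20 times in WT and 16 and 16 times in CBE-KO and did not pass (-0.51 ± 0.38, SE; edgeR adjusted p = 0.306). Evx1, a homeobox gene of the posterior streak, had 1, 1, 0 and 3 counts. Wnt8a fell from 45 and 55 counts to 20 and 21 (-1.40 ± 0.30, SE; edgeR adjusted p = 0.00109), and Snai1, which represses epithelial genes as cells leave the streak, fell by 0.41 on the log2 scale. The Snai1 call was lost in 5 of 11 alternative fits. Fgf8, a growth factor needed for cells to migrate from the streak, rose from 8 and 4 counts to 13 and 22 (1.42 ± 0.54, SE; edgeR adjusted p = 0.0422), a call lost in DESeq2 (adjusted p = 0.207) and without WT replicate 1 (0.0557), WT replicate 2 (0.245) or CBE-KO replicate 2 (0.418). Fgf8 too reached the filter's level in CBE-KO alone.

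Among 12 other genes of definitive endoderm, 9 were tested and 3 called, 2 higher and 1 lower, beside 43.1% of all tested genes, and the median log2 fold change was 0.31. Sox17, the defining transcription factor of definitive endoderm, was counted 85 and 107 times in WT and 118 and 121 times in CBE-KO and did not pass (0.20 ± 0.19, SE; edgeR adjusted p = 0.425). Cer1, an inhibitor secreted by anterior endoderm, had 0 counts in all 4 libraries, which allows at most the floor of 0.185 to 0.218 CPM. The zinc finger factor Gata4 rose by 0.72 ± 0.16 on the log2 scale (SE; adjusted p = 0.00112, edgeR), whereas its relative Gata6 had 763, 679, 821 and 752 counts and a log2 fold change of 0.01 (edgeR adjusted p = 0.935) that turned negative with median-of-ratios scaling. Otx2, a homeobox gene of anterior tissue, rose by 0.72 (edgeR adjusted p = 0.0354; 0.205 in DESeq2 and above 0.05 without WT replicate 2 or either CBE-KO library). Hnf4a, a nuclear receptor of visceral endoderm and liver, fell from 77 and 82 counts to 33 and 23, by 1.62 on the log2 scale (edgeR adjusted p = 5.11e-05).

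**Figure D3:**
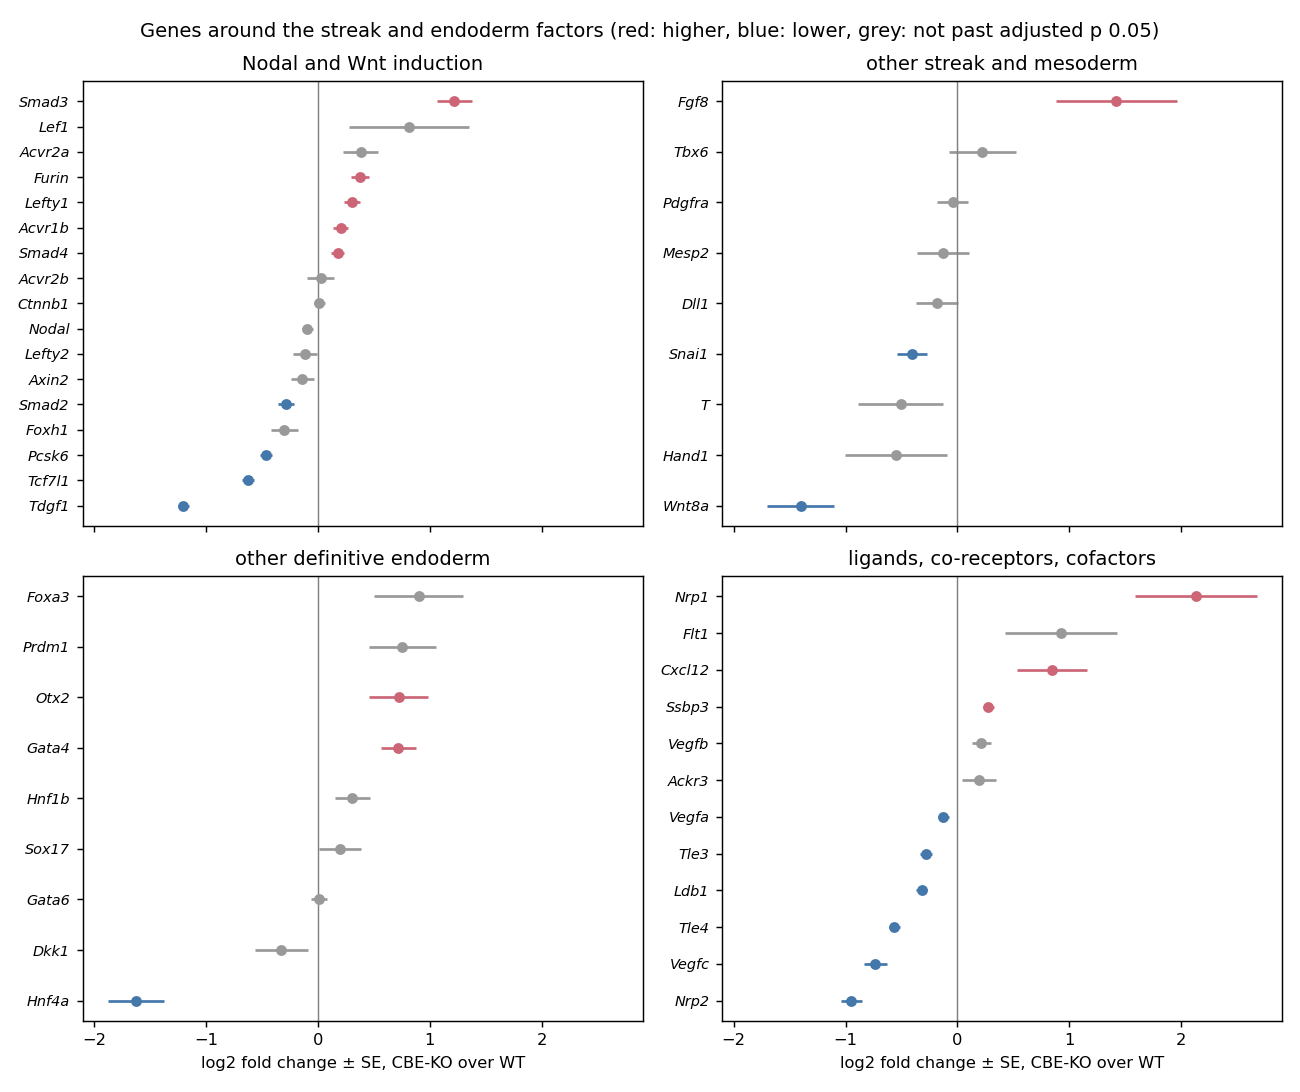
The horizontal axis of each panel is the edgeR log2 fold change of CBE-KO over WT with its SE, for the tested genes of 4 lists. Red genes were called higher, blue genes lower, and grey genes did not pass an adjusted p of 0.05. Genes of each list lie on both sides of 0, and the largest rise shown is that of Nrp1 (2.13).

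Since several of the 10 genes are shared with other tissues, marker lists of those tissues were read in the same fit, in which 43.1% of all tested genes were called, 21.6% higher and 21.5% lower. Pluripotency markers dominated all libraries, with summed levels of 4311 to 4455 CPM in WT and 3476 to 3507 CPM in CBE-KO. Of 8 such genes, 7 were called, 5 lower and 2 higher. Pou5f1, the defining factor, fell by 0.33 on the log2 scale from 1028 ± 79.7 to 816 ± 1.42 CPM (SD, n = 2 each), and the largest fall was that of Utf1, by 1.67. Nanog and Tfcp2l1 rose by 0.15 and 0.16 (edgeR adjusted p = 0.0107 and 0.0272), with 1 of these 2 calls left in DESeq2. Esrrb did not pass (-0.04, edgeR adjusted p = 0.504). Nanog, Tfcp2l1 and Esrrb were named after their values were seen. The retinoic acid-degrading enzyme Cyp26a1 and the receptor Rarb rose by 1.70 and 0.91, and 5 of 6 retinoic acid response genes were called, all 5 higher. With a minimum absolute log2 fold change of 1, 1 of these 5 calls was left. The part of these differences in the rise of Foxa1 was not tested.

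Extraembryonic endoderm, which also uses Foxa1, Foxa2, Hhex and Eomes, had 10 of 11 tested markers called out of 14 listed, 8 higher and 2 lower, with a median log2 fold change of 0.37. Their summed level was 733 to 747 CPM in WT and 830 to 837 CPM in CBE-KO. Sox7, a transcription factor of this tissue, and the adaptor Dab2 rose by 0.81 and 0.77 (Dab2 was not called in DESeq2 or without CBE-KO replicate 1), while Hnf4a and the endocytic receptor subunit Amn fell by 1.62 and 1.15. Cubn, another marker of the list, rose by 0.70 (edgeR adjusted p = 0.0135). The laminin genes Lama1, Lamb1 and Lamc1 and the collagen genes Col4a1 and Col4a2 were called higher, by 0.20 (Lamc1) to 0.55 (Lama1). Cubn and these laminin and collagen genes were named after their values were seen. The defining products of mature visceral endoderm were at or near 0: Afp had at most 4 counts, Ttr at most 1 and Apoa1 at most 6 in any library. Their part in the Foxa1 difference was not tested. Names of these 3 markers were picked after their values were seen.

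Kdr and Cxcr4 are also expressed by endothelial and blood cells. Of 10 markers of these cells, 8 were tested and 5 called, 4 higher and 1 lower, beside 43.1% called of all tested genes, with a median of 0.46 and summed levels of 177 to 179 CPM in WT and 213 to 220 CPM in CBE-KO. In DESeq2, and without WT replicate 2, 2 of these genes were called, and 3 without CBE-KO replicate 2. Most of the sum came from Pecam1, which embryonic stem cells also express. Tek, an angiopoietin receptor, rose from 26 and 29 counts to 162 and 133 (2.3 ± 0.22, SE; edgeR adjusted p = 2.04e-07). The blood and vessel factors Gata2 and Runx1 rose by 1.04 and 0.80, and Gata1 fell by 1.38. Each of these 3 calls was lost in DESeq2 and in 2 of the 4 fits without 1 library. Lmo2, Etv2 and Tie1 did not pass, with log2 fold changes of 0.69, -0.65 and -0.44. The defining endothelial gene Cdh5 had 2, 0, 4 and 6 counts, and Etv2, which starts the lineage, had 19, 13, 13 and 9. Pecam1, Lmo2, Tie1, Cdh5 and Etv2 were named after their values were seen. The part of such cells in the Kdr and Cxcr4 differences was not tested.

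Neural progenitor genes, relevant because such cells carry Cxcr4, had 3 of 4 tested genes called out of 8 listed, all 3 higher: Zfp521 by 3.59, Pax6 by 1.96 and Sox1 by 0.58 on the log2 scale. The fourth, Nes, an intermediate filament gene of neural progenitors, was counted 199 and 188 times in WT and 175 and 163 times in CBE-KO and did not pass (-0.31, edgeR adjusted p = 0.0687). Zfp521 and Pax6, like Kdr, entered the test through their CBE-KO counts. Their WT counts, 4 and 4 for Zfp521 and 10 and 9 for Pax6, were under the filter's level. Their list summed to 24.1 to 24.2 CPM in WT and 31.6 CPM in both CBE-KO libraries, while Olig2, Pax3 and Neurog2 had at most 4 counts in any library. Node and floor plate markers, which would accompany Foxa2, had 3 of 8 genes tested. Chrd, a secreted inhibitor of bone morphogenetic proteins, rose by 1.23 and Foxj1, a regulator of motile cilia, fell by 0.82, and Noto, Shh and Nkx6-1 had at most 7 counts. Nkx2-2, a floor plate gene, was counted 0 and 0 times in WT and 11 and 4 times in CBE-KO and was not tested. Nes and these untested markers were named after their values were seen. The 2 calls became 1 in DESeq2 and without CBE-KO replicate 1. The summed level of the node list was 8.21 to 8.36 CPM in WT and 9.86 to 10.6 CPM in CBE-KO. Trophoblast, where Eomes also acts, had 7 of 8 markers tested and 3 called. Ascl2 and Tfap2c fell by 1.27 and 0.74, Krt18 rose by 0.41 (not called in DESeq2 or without WT replicate 2), and the sums were 55.8 to 62.3 CPM in WT and 52.8 to 53.4 CPM in CBE-KO. The part of these cells in the differences of the 10 genes was not tested.

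**Figure D4:**
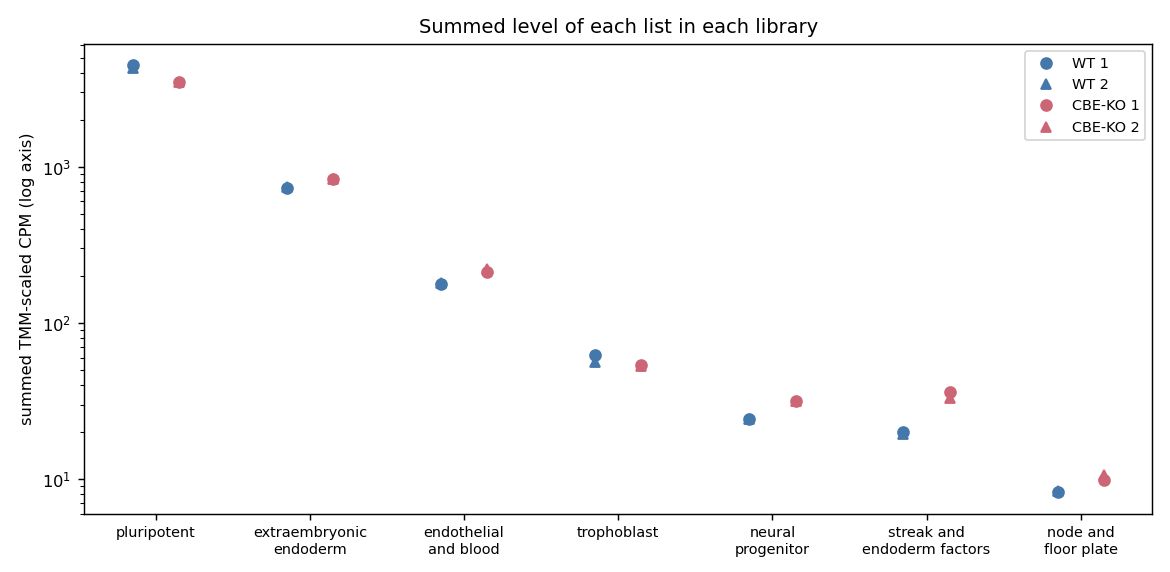
The vertical axis, logarithmic, is the summed TMM-scaled CPM of each list in each library, blue for WT and red for CBE-KO. The 10 streak and endoderm factors sum to 19.4 to 19.9 CPM in WT and 32.9 to 36.2 CPM in CBE-KO, far below the pluripotency list.

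The summed level of the 10 genes was higher in both CBE-KO libraries than in either WT library, at 32.9 and 36.2 CPM against 19.4 and 19.9 CPM. Foxa1 and Cxcr4 contributed most of that difference: their means rose from 3.11 to 10.4 CPM and from 0.909 to 5.17 CPM, whereas Eomes, the gene with the most counts of the 10 in WT, had 12.5 and 13.2 CPM.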

How the data were processed

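RNA-seq counts of 4 libraries were used, while 6 Capture-C samples were left aside. The authors deposited 1 table per library of unnormalized counts for Ensembl genes, whole numbers throughout. Per the submitters' processing notes, HISAT2 2.1.0, HTSeq 0.9.1, DESeq2 1.18.1, Bowtie2 2.3.1 and build mm10 were used, with no step assigned. Strand use and annotation are not given in the sources used here, so overlapping and antisense genes cannot be told apart. Symbols matched 52403 of 52636 identifiers.

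Genes kept by edgeR's filterByExpr at default settings (16005) were scaled by TMM and tested with edgeR 4.0.16 in R 4.3.3 (glmQLFit, glmQLFTest, two-sided, no covariate, Benjamini-Hochberg over all tested genes, threshold 0.05). SE is the log2 fold change divided by the root of the F statistic, intervals use 17.3 degrees of freedom, and SD is over 2 libraries. Groups and replicate numbers came from titles. The series' text calls the replicates biological without naming separate cultures. So p-values rest on the spread between these libraries, pooled across genes: 15.3 of the 17.3 degrees of freedom come from all genes together. The common biological coefficient of variation, a relative spread between libraries of a group, was 5.18%. Counting intervals and floors cover counting error only and leave out the spread between libraries. Reads carry no molecular identifiers, so duplicate reads may be counted and the counting intervals may be too narrow. The genes and lists were chosen with earlier results of these data known. Besides the 10 genes, up to 4 called genes with the largest absolute log2 fold change per list were named, with 17 listed genes whether or not they passed, among them T, Sox17, Nodal and Cer1. Alternatives were DESeq2 1.42.0, 3 other scalings, 2 other filters, the replicate number as a block, stricter thresholds and leaving out each library. The test was checked on simulated counts in which few genes changed, equally up and down. That setting differs from these data, where 43.1% of tested genes were called, so the check does not cover it. Protein sequences were not used here. Some untested genes of the marker lists are not reported here.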

Additional observations from a re-analysis of the deposited data

How the results depend on the processing

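Foxa1 and Cxcr4 kept direction and call in all 11 alternative fits. The number of the 10 genes called, 3 in the edgeR fit, was 3 with the replicate block, 2 in DESeq2, at a mean of at least 1 CPM or at an adjusted p under 0.01, 4 with upper-quartile scaling, library totals or no filter, and 2 to 4 without 1 library. Deviations of same-numbered libraries had a correlation of 0.0346, and the labels do not pair them. The block gave 7027 called genes against 6895 and changed 1 call among the genes named, that of Vegfa (adjusted p = 0.0763). Over all genes, DESeq2 called 4577, a minimum absolute log2 fold change of 1 left 1383, and leaving out 1 library gave 5492 to 6420. In those fits the lone library of a group is assumed to vary like the other group. The cause of the gap between DESeq2 and edgeR was not tested.

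Signs that reversed belonged to changes that had not passed: Foxa2 (0.0278 with library totals, -0.616 to 0.289 without 1 library), Hhex (-0.543 to 1.473 without 1 library), Nodal (0.0120 with library totals), Sox17 (-0.00197 to 0.413 without 1 library) and Gata6 (-0.00257 in DESeq2, -0.00280 with median-of-ratios scaling, -0.0362 to 0.0486 without 1 library). In fits of all 4 libraries, these counts of called list genes moved by over 1.5 times. Other streak and mesoderm genes went from 3 to 1 in DESeq2 and at the stricter threshold. Other endoderm genes went from 3 to 6 with library totals and 5 without the filter. Endothelial genes went from 5 to 2 in DESeq2 and at the stricter threshold, and node genes from 2 to 1 in DESeq2. The streak, endothelial and node counts also moved by over 1.5 times in some fits without 1 library. With a minimum absolute log2 fold change of 1, calls fell from 9 to 2 for Nodal and Wnt genes, 10 to 2 for extraembryonic endoderm, 9 to 1 for ligands and cofactors, 7 to 1 for pluripotency, 5 to 3 for endothelial genes, 5 to 1 for the retinoic acid list, 3 to 1 for trophoblast and for other endoderm genes, and 2 to 1 for node genes. At 14108038 to 15632960 counts per library, Mesp1 and Lhx1 were too low for a difference to be measured.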
